A study of Mus musculus with 4 samples.

Results

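The delta protocadherins are cell surface proteins of the cadherin superfamily, and 8 of their genes were followed here through every probe that maps to them on the array: Pcdh1, Pcdh7 and Pcdh9 of the delta-1 group and Pcdh8, Pcdh10, Pcdh17, Pcdh18 and Pcdh19 of the delta-2 group. They are 8 of 22916 genes named on the array and have 18 probes. The family was chosen by measured values, because a Pcdh19 probe had the largest difference between the treatments among 538 probes that had a gene symbol, exceeded the background on all 4 arrays, were higher on both MOTS-c arrays and had an unadjusted p under 0.05. The first 5 of these genes had been singled out, and at that boundary the fifth, Bcar3, had a log2 difference of 1.26 and the sixth, Atf7ip2, one of 1.21. The difference between the treatments is therefore given for the members as a description, with no test.

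The study asked how MOTS-c, a small peptide encoded in mitochondrial DNA, changes gene expression in aging islets. Pancreatic islet cells of 60-week-old C57BL/6 mice, littermates that the labels give as male, were dispersed into single cells and treated outside the animal for 24 h with 10 μM of either MOTS-c (2 arrays, replicates 2 and 3) or a scrambled peptide (2 arrays, replicates 1 and 2), a nonspecific control peptide. RNA of the whole cell suspension was hybridized in 1 color to Agilent mouse arrays, so fewer cells of a type and less RNA per cell cannot be told apart. The labels do not say whether an array holds 1 mouse or several, and the p-values below measure only the spread between these arrays.

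Delta protocadherins bind the same protein on a neighboring cell, weakly and with calcium, and are best known for sorting neurons and guiding axons. The delta-1 proteins carry a binding motif for protein phosphatase 1, and several delta-2 proteins recruit the WAVE complex, which drives branching of actin filaments. Pcdh19 is X-linked, works together with N-cadherin, and is mutated in an epilepsy that affects heterozygous females.

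Each array held 59305 gene spots, of which 61.6% to 65.0% were well above background, the scanner software's call that a spot exceeds its local background, and 0 were saturated. A probe was tested if 2 or more of the 4 arrays passed this call, which 35087 probes did. The islet label was borne out by its defining markers, with 8 of 10 beta cell genes and the hormone genes Ins1, Gcg and Sst well above background on every array. The label of the sex was not: Xist, which is transcribed from the inactive X chromosome of females, was well above background on 4 of 4 arrays, and the 4 Y-linked genes on 0 of 28 probe and array pairs. These calls were alike on the scrambled and the MOTS-c arrays.

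The members differed first in whether they could be measured at all. Of the 18 probes, 12 passed this call on all 4 arrays, 1 on both MOTS-c arrays but no scrambled array, and 5 on no array. Pcdh7, a receptor with long and short cytoplasmic forms, was the member without a measured probe: its 3 probes gave a median signal of 0.842 to 1.24 times the local background. Pcdh9 was seen through 1 of its 3 probes, since the other 2 lay at 0.921 to 1.26 times the background. Pcdh10 was far from this limit, with 178 to 219 times the background for its probe A_51_P209150. Such ratios place a spot against its own background and do not rank one gene's RNA against another's.

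**Figure D1:**
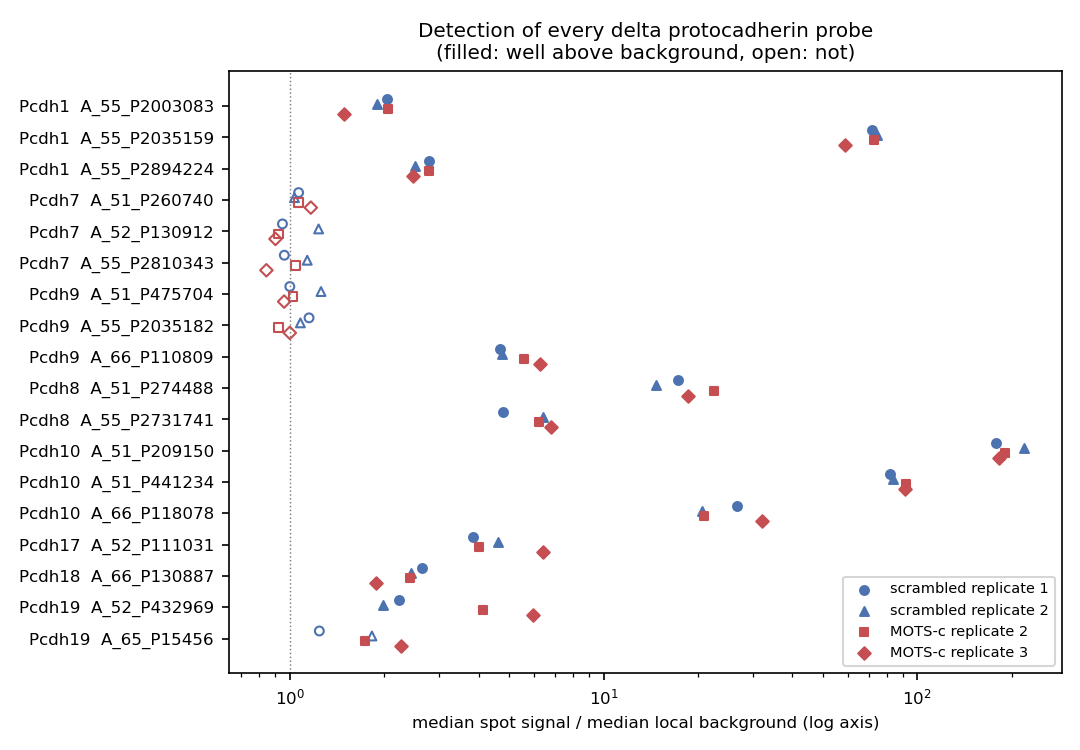
Median spot signal divided by median local background (log axis) for all 18 probes of the 8 genes on the 4 arrays, with filled symbols where the spot was well above background. The Pcdh7 probes and 2 Pcdh9 probes lie near 1 on every array, while the Pcdh10 probe A_51_P209150 lies between 178 and 219.

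Pcdh19 was dim on the scrambled arrays and brighter on both MOTS-c arrays. Its first probe, A_52_P432969, read a log2 signal of 5.85 and 4.80 with the scrambled peptide and of 7.01 and 7.60 with MOTS-c. The lowest MOTS-c value stood above the highest scrambled one, as the rule that picked this probe required. The means were 5.33 ± 0.74 and 7.31 ± 0.42 (SD, n = 2 each), a log2 difference of 1.98 with a standard error of 0.41, or 3.95-fold. Over the background of the same spots, the signal was 2.22 and 1.98 times with the scrambled peptide and 4.14 and 5.94 times with MOTS-c. The order was thus the same before any normalization, which is no separate measure, since the probe was chosen by these spots. The scanner's own error for these spots was 10.1% to 16.4%.

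The replicates of this probe were far apart. The scrambled arrays differed by a log2 of 1.05, a gap as large as or larger than which 1.02% of all tested probes showed between the same arrays. The MOTS-c arrays differed by 0.59, matched or exceeded by 11.0% of probes. Without any 1 array the difference stayed between 1.46 and 2.49, and with the normexp background correction, which adds an offset that draws dim spots together, it was 1.12.

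The second Pcdh19 probe, A_65_P15456, lay near the background. It read a log2 signal of 3.15 and 3.78 with the scrambled peptide, where neither spot was well above background, and of 4.32 and 5.20 with MOTS-c, where both were. It entered the comparison only through the MOTS-c arrays, a filter that favors a higher signal with MOTS-c. With each scrambled array set to the higher of its own signal and the lowest signal measured above background, the fold was 1.64. This fold, MOTS-c over scrambled, rests on the same filter and is no lower bound for Pcdh19. The measured difference was 1.30 with a standard error of 0.37. The signal over local background overlapped between the groups, at 1.24 and 1.83 times with the scrambled peptide and 1.74 and 2.27 times with MOTS-c. With the normexp correction the difference was 0.28. Its direction is therefore no second measure of Pcdh19.

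The RefSeq promoter windows of 4 members are shown, since Pcdh19, Pcdh17 and Pcdh8 were higher on both MOTS-c arrays and Pcdh18 of the same group was lower on both. Each window runs from 250 bases before the start site to 50 bases after it on the gene's own strand in assembly GRCm38.p6: Pcdh19 at chrX:133688944-133689243 (minus strand), Pcdh17 at chr14:84443313-84443612 (plus), Pcdh8 at chr14:79771263-79771562 (minus) and Pcdh18 at chr3:49757267-49757566 (minus). Capitals mark matches on either strand to the GC box (GGGCGG), the CCAAT box (CCAAT) and the TATA box (TATAAA).
Pcdh19: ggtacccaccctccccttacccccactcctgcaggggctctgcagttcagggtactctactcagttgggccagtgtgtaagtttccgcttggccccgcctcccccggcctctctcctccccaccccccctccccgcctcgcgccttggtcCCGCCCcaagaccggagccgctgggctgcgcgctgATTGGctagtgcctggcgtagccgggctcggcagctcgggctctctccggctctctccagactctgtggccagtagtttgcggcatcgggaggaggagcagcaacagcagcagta
Pcdh17: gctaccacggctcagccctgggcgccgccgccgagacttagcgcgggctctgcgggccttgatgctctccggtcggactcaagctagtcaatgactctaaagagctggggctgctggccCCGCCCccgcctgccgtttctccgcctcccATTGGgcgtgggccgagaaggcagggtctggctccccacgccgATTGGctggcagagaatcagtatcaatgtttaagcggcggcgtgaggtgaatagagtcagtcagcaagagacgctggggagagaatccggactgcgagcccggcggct
Pcdh8: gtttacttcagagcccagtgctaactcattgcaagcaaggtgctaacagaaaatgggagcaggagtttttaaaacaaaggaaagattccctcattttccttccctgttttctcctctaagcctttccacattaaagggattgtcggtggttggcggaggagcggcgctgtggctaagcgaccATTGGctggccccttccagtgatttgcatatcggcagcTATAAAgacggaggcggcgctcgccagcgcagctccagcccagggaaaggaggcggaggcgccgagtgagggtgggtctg
Pcdh18: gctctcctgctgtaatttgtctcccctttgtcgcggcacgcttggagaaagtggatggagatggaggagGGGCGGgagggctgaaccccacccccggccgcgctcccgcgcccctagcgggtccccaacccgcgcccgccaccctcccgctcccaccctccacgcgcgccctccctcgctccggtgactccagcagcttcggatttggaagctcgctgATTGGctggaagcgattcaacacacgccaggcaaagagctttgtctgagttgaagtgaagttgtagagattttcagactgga

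A CCAAT box, spelled ATTGG on the gene's strand, began 65 bases before the start site of Pcdh19, 58 and 101 bases before that of Pcdh17, 68 bases before that of Pcdh8 and 32 bases before that of Pcdh18. Pcdh10 also held 2 in this orientation, 50 bases before and 34 bases after its start, which made 5 of the 7 members with a window, against 22.1% of all 32851 promoter windows. Pcdh9 held the box as spelled and Pcdh7 held none, and in either orientation it was in 37.4% of all windows. The members were not compared with windows of like CG content. A GC box lay in the windows of Pcdh10, Pcdh17, Pcdh18 and Pcdh19 (35.7% of all windows), and the TATA box lay only in that of Pcdh8 among the 7 members, 30 bases before the start (13.6% of all windows). The windows of the members held more CG dinucleotides than the median of 7 over all windows, from 11 in Pcdh7 to 26 in Pcdh17. Pcdh19 held 18, Pcdh8 14 and Pcdh18 23. Of all windows, 58.6% held fewer than that of Pcdh7 and 83.1% fewer than that of Pcdh17. No member's window held the core of the antioxidant response element (TGACNNNGC, in 12.4% of all windows), the E-box CACGTG (7.15%) or the cAMP response element TGACGTCA (1.79%), which says only that these letters are not in these windows. The box content did not separate the members by direction, since Pcdh18 and Pcdh19 held the same boxes. Pcdh8, Pcdh9 and Pcdh17 lie on chromosome 14 and Pcdh10 and Pcdh18 on chromosome 3. No window was examined for Pcdh1.

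The remaining delta-2 genes were Pcdh17, Pcdh8, Pcdh10 and Pcdh18. Pcdh17, which recruits WAVE to contacts between axons, had a single probe with a log2 signal of 6.94 and 6.91 in the scrambled group and 7.25 and 7.92 in the MOTS-c group. The scrambled values were nearly equal, both MOTS-c values lay above them, and MOTS-c replicate 3 lay well above replicate 2. The log2 difference was 0.66 with a standard error of 0.25, or 1.58-fold, and it was 0.996 without MOTS-c replicate 2 and 0.33 without replicate 3. With the normexp correction it was 0.36. Its signal over local background overlapped, at 3.83 and 4.63 times in the scrambled group and 4.0 and 6.40 times in the MOTS-c group.

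Pcdh8, which is internalized with N-cadherin at active synapses, had 2 probes, both higher on both MOTS-c arrays. A_55_P2731741 read 7.27 and 7.46 against 7.85 and 7.88 with MOTS-c, a log2 difference of 0.50 with a standard error of 0.13. A_51_P274488 read 9.14 and 9.05 against 9.49 and 9.30, a difference of 0.30 with a standard error of 0.14. The groups did not overlap in either, and leaving out single arrays kept the differences between 0.40 and 0.60 and between 0.21 and 0.40. With the normexp correction they were 0.32 and 0.24. The signal over local background of A_55_P2731741 overlapped, at 4.77 and 6.43 times with the scrambled peptide and 6.25 and 6.825 times with MOTS-c. That of A_51_P274488 did not.

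Pcdh10, which is used in the growth of forebrain axons, had small differences in all 3 of its probes. A_51_P209150 read 12.84 and 12.97 with the scrambled peptide and 12.89 on both arrays with MOTS-c, a log2 difference of -0.01 with a standard error of 0.12. A_51_P441234 read 11.45 and 11.48 against 11.53 and 11.55, a difference of 0.08 with a standard error of 0.12. A_66_P118078 read 9.88 and 9.43 against 9.51 and 10.14, a difference of 0.17 with a standard error of 0.28. The middle probe kept its groups apart by a margin smaller than its standard error, and the groups overlapped in the other 2. The last probe turned to -0.06 without scrambled replicate 2 and to -0.15 without MOTS-c replicate 3, and was 0.40 without scrambled replicate 1 and 0.48 without MOTS-c replicate 2.

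Pcdh18, an adaptor-binding member of the group, had a difference of the opposite sign. Its probe read a log2 signal of 5.72 and 5.52 with the scrambled peptide and of 5.45 and 4.86 with MOTS-c, a difference of -0.47 with a standard error of 0.24. The groups did not overlap, but MOTS-c replicate 2 lay close to scrambled replicate 2. Without MOTS-c replicate 3 the difference was -0.18, without replicate 2 it was -0.76, and with the normexp correction it was -0.17.

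**Figure D2:**
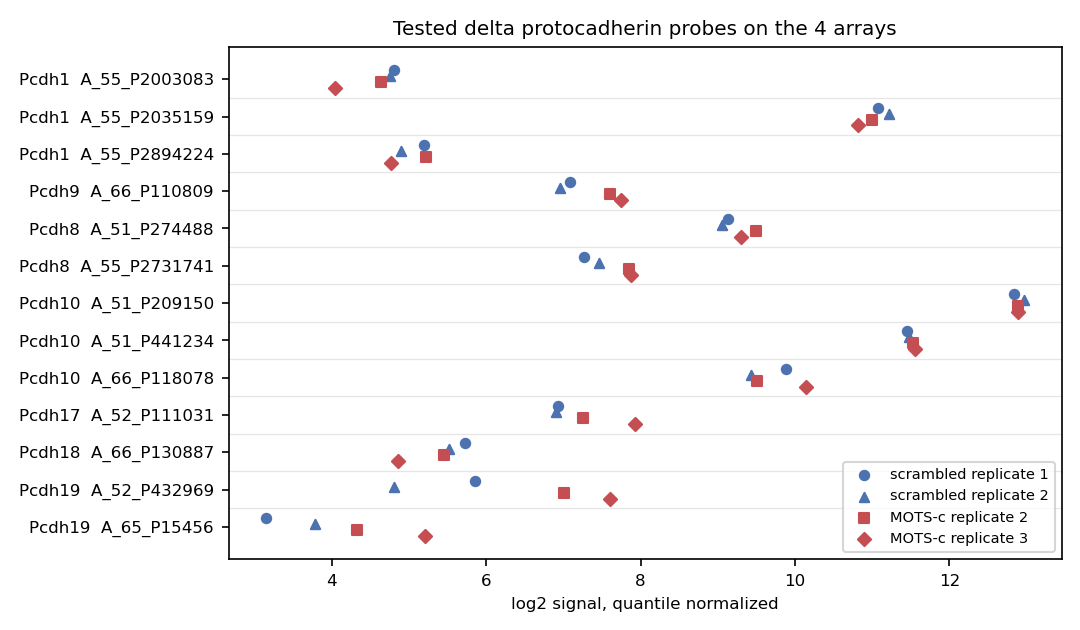
Log2 signal, quantile normalized, of the 13 tested member probes on the 2 scrambled (blue) and 2 MOTS-c (red) arrays. Both red points of each Pcdh19 probe and of the Pcdh17, Pcdh8 and Pcdh9 probes lie to the right of both blue points, and the points of the first Pcdh10 probe lie between 12.84 and 12.97.

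Of the delta-1 genes, Pcdh9, a member found in many brain circuits, had 1 measured probe. It read a log2 signal of 7.08 and 6.95 in the scrambled group and of 7.61 and 7.75 in the MOTS-c group. Within each group the arrays lay close together, and the groups were apart by more than either spread. The difference was 0.66 with a standard error of 0.13, or 1.58-fold, and stayed between 0.59 and 0.73 without any 1 array. With the normexp correction it was 0.34.

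Pcdh1, the member best known from airway epithelium, had 3 measured probes, each with a difference below 0. A_55_P2035159 read 11.07 and 11.22 with the scrambled peptide and 11.00 and 10.81 with MOTS-c, a log2 difference of -0.24 with a standard error of 0.14. A_55_P2003083 read 4.81 and 4.75 against 4.64 and 4.05, a difference of -0.44 with a standard error of 0.23, and A_55_P2894224 read 5.19 and 4.90 against 5.22 and 4.76, a difference of -0.05 with a standard error of 0.21. The first 2 probes kept the groups apart and the last did not. In signal over local background the groups overlapped in all 3 probes. For A_55_P2035159 it was 71.8 and 74.2 times with the scrambled peptide and 72.55 and 58.7 times with MOTS-c. Without MOTS-c replicate 3 the differences were -0.15, -0.15 and 0.18 in the same order, and without replicate 2 they were -0.33, -0.74 and -0.28. The last also turned without scrambled replicate 1 (0.09) and with the normexp correction (0.01), under which A_55_P2003083 differed by -0.09.

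Over the 13 tested probes, 7 had both MOTS-c values above both scrambled values, 3 had both below, and 3 overlapped. Over all tested probes 19.4% were higher on both and 18.6% lower on both. Differences of at least 1.5-fold were seen in 4 of the 13, all higher, from Pcdh19 (both probes, the second of which passed only through the MOTS-c arrays), Pcdh17 and Pcdh9, and over all probes 1.81% were higher by this fold and 3.43% lower. Since the family was brought into view by this contrast, nothing is read from these shares. The median difference was -0.15 over the 4 delta-1 probes and 0.30 over the 9 delta-2 probes, against 0.01 over all tested probes. Those medians mix genes that differed in direction within each group.

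**Figure D3:**
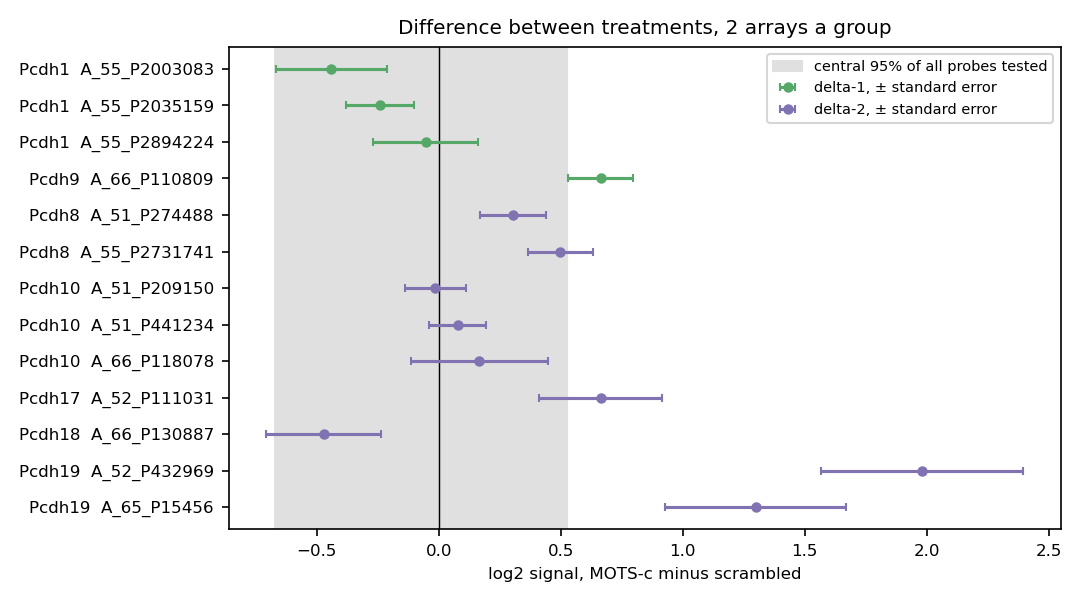
Log2 difference, MOTS-c minus scrambled, of the 13 tested member probes with the standard error of the fit (2 arrays a group), and the central 95% of all tested probes as a grey band from -0.67 to 0.52. The Pcdh19 probes lie at 1.98 and 1.30, the Pcdh17 and Pcdh9 probes at 0.66, and the others within the band.

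MOTS-c replicate 3 carried more of these differences than replicate 2. It lay farther from the scrambled mean in 12 of the 13 member probes, the exception being Pcdh8 A_51_P274488, and in 61.3% of all tested probes. The median absolute log2 difference between the MOTS-c arrays was 0.46 over the member probes and 0.19 over all probes. Between the scrambled arrays it was 0.15 over the members and 0.16 over all. Single probes went against these medians, among them Pcdh19 A_52_P432969, whose arrays differed more in the scrambled group. Whether the cells on MOTS-c replicate 3 differed in another way was not tested.

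**Figure D4:**
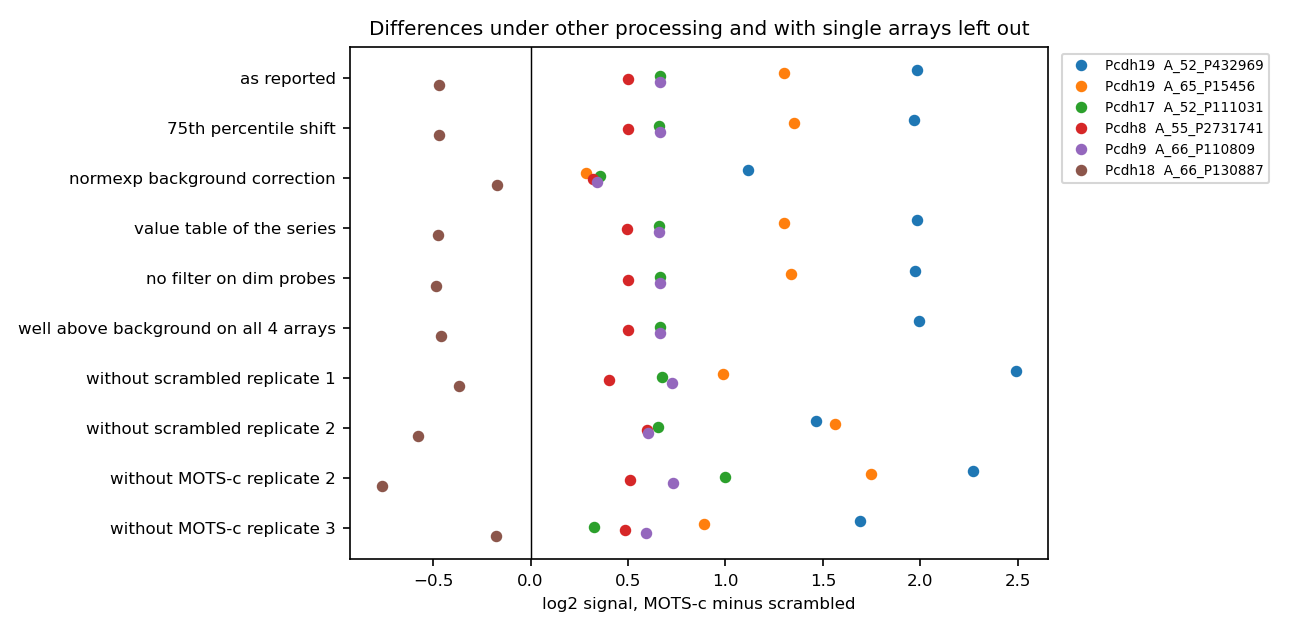
Log2 difference, MOTS-c minus scrambled, of 6 probes of Pcdh19, Pcdh17, Pcdh8, Pcdh9 and Pcdh18 as reported, under 5 other ways of processing and with each array left out in turn. No point crosses 0, the normexp correction moves the first Pcdh19 probe from 1.98 to 1.12, and the second has no value where probes had to be well above background on all 4 arrays.

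The summed signal of several marker lists did not overlap between the groups, and each sum follows its brightest genes. The summed signal of the Schwann cell markers was 7638 to 7762 on the scrambled and 4010 to 5852 on the MOTS-c arrays over 5 of 9 genes, with Sox10, S100b and Erbb3 among those not measured. Most of this sum was Ngfr, with a log2 difference of -0.70, while Gfap of the same list differed by 0.48. Both were chosen for mention after their values were seen. The mesenchymal sum was 5271 to 5735 against 4923 to 4987 over 4 of 10 genes, with Col1a1, Col3a1, Dcn, Lum, Pdgfrb and Rgs5 not measured. The alpha cell sum was 57752 to 61295 against 61311 to 62247 over 4 of 6 genes, apart only at the edge, and mostly Gcg, while Ttr of that list differed by -0.27. The beta cell sum was 901031 to 923472 against 884858 to 897249. It was mostly Ins1 and Ins2, very bright probes whose quantile normalized values follow their rank on the array. Ins2 read the same log2 signal, 18.54, on scrambled replicate 1 and both MOTS-c arrays. The gap in this sum is therefore not read as a difference in beta cells. Slc2a2, a dim gene well above background on 3 of the 4 arrays, differed by -1.33. Ttr and Slc2a2 were likewise chosen after their values were seen. The sums of the delta cell, acinar, ductal, endothelial, immune and cell cycle markers overlapped between the groups. The part of these differences in the values of the members was not tested.

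The genes whose pattern over the 4 arrays was most like that of the first Pcdh19 probe were Cd36, Chst7, Atf7ip2, Gabrb1 and Lmo4, in this order. Likeness was the Euclidean distance between log2 values centered on each probe's mean, over 4 arrays and 21817 probes of other genes, and it ran from 0.71 for Cd36 to 1.07 for Lmo4. Cd36 read 6.01 and 5.82 on the scrambled and 7.22 and 7.85 on the MOTS-c arrays, with the higher value on MOTS-c replicate 3 as for Pcdh19. Gabrb1 shared the lower value on scrambled replicate 2, at 5.37 and 4.74 against 5.79 and 6.32. With 4 arrays, a likeness of this kind mostly restates the difference between the treatments.

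Next to the members, the rest of the cadherin superfamily and the proteins linked to it were looked at through 7 lists with 80 measured genes and 133 probes. By limma, 0 of the 133 probes passed an adjusted p under 0.05, as did 0% of all probes tested, and the smallest adjusted p over all probes was 0.474. At an unadjusted p under 0.05, 17 of the 133 probes passed, and 2755 of the 35087 probes tested over the whole array. By the methods' t-test 1 of all probes passed after adjustment. With at least 1.5-fold as well, 2 of the 133 probes were called, 1 higher and 1 lower, against 3.53% of all probes, 1.10% higher and 2.43% lower.

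**Figure D5:**
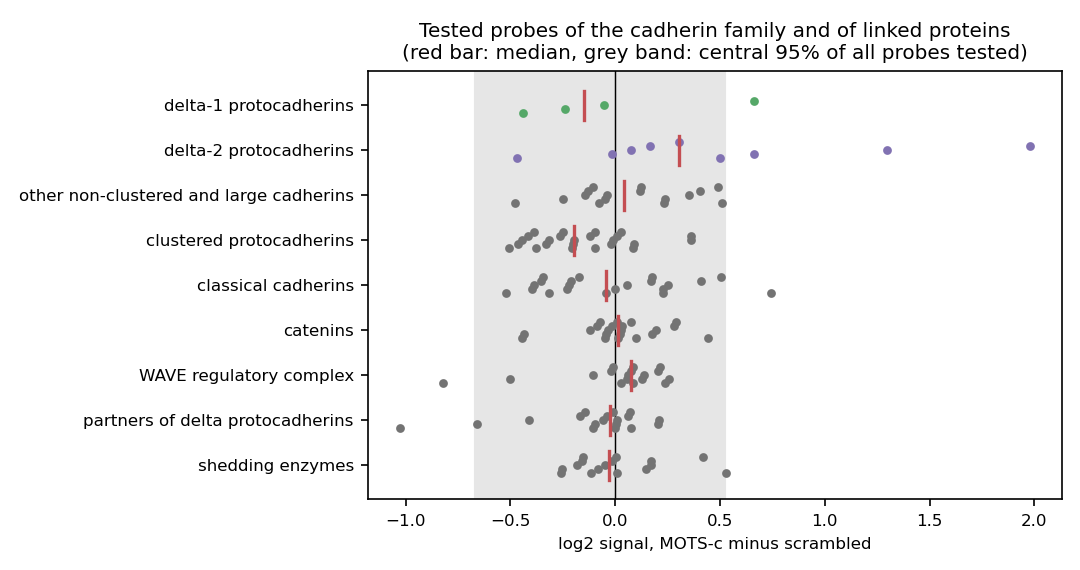
Log2 difference, MOTS-c minus scrambled, of the tested probes of the delta-1 and delta-2 protocadherins and of 7 lists of related genes, with the median of each as a red bar. The medians of the 7 lists lie between -0.20 and 0.08, and the probe farthest to the right is that of Pcdh19 at 1.98.

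Among the proteins that bind delta protocadherins, none of those given here was called. Of the phosphatase 1 catalytic subunits that bind delta-1 proteins, Ppp1ca differed by 0.00 in both probes, Ppp1cb by 0.20 and Ppp1cc by 0.01 to 0.07. Set, a phosphatase inhibitor that binds Pcdh7, differed by -0.11 and -0.01, and Taok2, the kinase that acts with Pcdh8, by -0.04 and 0.07. Nono, a nuclear partner of Pcdh19, differed by -0.06, Fzd7, which acts with Pcdh8 proteins in frogs, by -0.17, and Smad3, which Pcdh1 binds, by 0.21 and -0.15. Dab1, an adaptor that Pcdh18 binds, had the widest differences of those given here, at -0.66, -0.41 and -0.10 in its 3 probes, with adjusted p of 0.693 to 0.934. Its first 2 probes were lower on both MOTS-c arrays, as was the Pcdh18 probe, and MOTS-c replicate 3 was the lowest in both.

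In the shedding list, the enzymes that cut protocadherins at the membrane, 0 of 16 probes were called, against 3.53% of all probes. Adam17, a sheddase, came closest, with differences of 0.53 (standard error 0.12, adjusted p = 0.515) and 0.42, and both of its probes lay higher on both MOTS-c arrays. Adam10, the sheddase of Pcdh12 and other protocadherins, differed by 0.17 and 0.15 with overlapping groups. The gamma-secretase genes Psen2, Ncstn, Aph1a, Aph1b and Psenen differed by -0.26 to 0.17, and all 3 Psenen probes were lower on both MOTS-c arrays.

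The actin machinery that delta-2 proteins recruit had 0 of 17 probes called, against 3.53% of all probes. Nckap1, the subunit that binds Pcdh10, Pcdh17 and Pcdh19 and was chosen for that role, differed by 0.06, 0.20 and 0.26. The median over the list was 0.08, and its probes ran from -0.82 to 0.26. Of the 17 probes, 6 were higher and 2 lower on both MOTS-c arrays, against 19.4% and 18.6% of all probes. Cdh2, the N-cadherin that pairs with Pcdh19, differed by 0.23 with overlapping groups. In the list of classical cadherins 1 of 21 probes was called, Cdh24 at 0.75 (standard error 0.24, adjusted p = 0.578), whose other probe differed by -0.35 and whose call was lost without scrambled replicate 2 (0.54) or MOTS-c replicate 3 (0.49), with the normexp correction (0.09), with no filter on dim probes (0.78), by the methods' t-test and by limma with a trend. The catenins, which link classical cadherins but not delta protocadherins to actin, had 0 of 21 probes called and a median of 0.01.

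No probe of the other protocadherins was called, against 3.53% of all probes tested. The clustered protocadherins, 58 genes that diversify neurons, had 22 genes with a measured probe and 0 of 24 probes called. Of those probes 11 were lower and 3 higher on both MOTS-c arrays, with a median of -0.20, against 18.6% lower and 19.4% higher of all probes, and their near-identical sequences mean that a probe may read several of them. The remaining non-clustered and large cadherins had 0 of 16 probes called, 6 of them higher and 1 lower on both MOTS-c arrays (19.4% and 18.6% of all probes), with a median of 0.04. Pcdh20, the nearest in name and chosen after its values were seen, read 7.73 on each scrambled array and 8.03 and 8.25 with MOTS-c, a difference of 0.41.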

How the data were processed

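RNA was amplified, labeled with Cy3 and hybridized to 4 one-color arrays by the authors, who scanned them and read the spots with Feature Extraction. The deposited intensity of each spot had its background taken off within the array, and no step between arrays had been applied. A value table of the series, also deposited, holds the same intensity values (ratio 0.995 to 1.005). Groups and replicate numbers were taken from the labels, and a single slide carried the arrays.

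Control spots (3671 an array) and outlier spots (96 to 131 an array) were left out, intensities were taken to log2 and repeated spots were averaged per probe. Probes were kept, whatever the group, if 2 or more arrays called them well above background, and were quantile normalized. The methods also drop a Flag A that they do not define, which was not applied. MOTS-c was compared with scrambled, two-sided, in limma (version 3.58.1, R 4.3.3) over 35087 probes with Benjamini-Hochberg adjustment. The residual degrees of freedom were 2, to which limma added 2.64. A probe was called at an unadjusted p under 0.05 with at least 1.5-fold. Of 56605 probes, 33006 were given a symbol through the accessions in the array files and the RefSeq gene table of GRCm38.p6. The array was designed on another build, so probes have no coordinates here. Promoters are from RefSeq.

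The members and all lists were chosen with earlier results of these data known. Named genes are every member probe, up to 4 called probes of each list, every measured gene of the partner and shedding lists, the 5 genes nearest in pattern to Pcdh19, and the fifth and sixth largest rises. Not every gene that the rule names is reported here. Cdh2 and Nckap1 were added for their role. The fit was tested on simulated data. Alternatives were a 75th percentile shift, normexp (offset 50, on median spot signals), the value table, no filter or a filter on all 4 arrays, each array left out, limma with a trend, the methods' t-test, and the mean or brightest probe of a gene. The number of arrays limits the precision.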

Additional observations from a re-analysis of the deposited data

How the results depend on the processing

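No paired analysis was possible because the groups share only replicate number 2. Of the 13 member probes, 10 kept their sign under every alternative that gave them a value, and of 120 such values 7 had the other sign, from Pcdh1 A_55_P2894224 and the Pcdh10 probes A_51_P209150 and A_66_P118078, whose groups overlapped. The difference of Pcdh19 A_52_P432969 was 1.98, ran from 1.46 to 2.49 with single arrays left out (lowest without scrambled replicate 2, highest without scrambled replicate 1), and was 1.12 with normexp. The 1239 probes called over the whole array were 406 with normexp (75 higher and 331 lower), 457 by the methods' t-test, and 1374 to 3264 with single arrays left out, the most without MOTS-c replicate 2 (1441 higher and 1823 lower). After adjustment the methods' t-test passed 1 probe and limma 0 in every alternative. The 2 probes called in the other lists were 0 with normexp, 0 with the filter on all 4 arrays, 4 with no filter, 1 by the methods' t-test, and 1 to 12 with single arrays left out (6 without scrambled replicate 1, 12 without MOTS-c replicate 2, 1 without MOTS-c replicate 3). Fits without an array have a lone array in 1 group, which is assumed to vary like the other group. The cause of these changes was not tested. The probes of Pcdh18 and Pcdh19 lay at 1.24 to 5.94 times their local background, and 2 of the 3 Pcdh1 probes at 1.48 to 2.77 times.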
